A study of Mus musculus with 3 samples.

Results

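The MHC class II presentation genes described here are 9 genes chosen by name from 32227 genes in the tables: H2-Aa, H2-Ab1 and H2-Eb1, which encode chains of the class II molecules, Cd74 (the invariant chain), Ciita (the class II transactivator), H2-DMa and H2-DMb1 (the peptide exchange factor H2-M), H2-Oa (a chain of its inhibitor H2-O) and Ctss (cathepsin S, which trims the invariant chain). The samples were droplet single-nucleus RNA libraries from the lumbar dorsal root ganglia (L3 to L5) of C57BL/6 mice, which hold sensory neuron cell bodies, the satellite glial cells (SGCs) around them, Schwann cells, fibroblasts, vessels and immune cells. One library came from adult mice labelled 3 months old and 2 came from aged mice labelled 21 months old, with no genotype change or treatment in any group. The text of the series gives a younger age for the aged group than the sample labels, which were followed here.

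Class II molecules present peptides taken up from outside the cell to CD4+ T cells. Their chains are assembled with the invariant chain, carried to the endosome, freed of it by cathepsins and loaded with peptide with the help of H2-M. Macrophages, dendritic cells and B cells make them constantly under control of the transactivator, and many other cells can make them after exposure to interferon gamma.

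The regulator binds DNA through a promoter-bound complex that occupies a conserved X box followed by a Y box, so the promoters of 3 members that hold both are shown. RefSeq promoters (GRCm38.p6, 250 bases before to 50 bases after the start site) were at hand for 6 of the 9 members. In the windows below (bases -110 to -39 from the start site, 5′ to 3′ on the gene's strand), capitals mark GNAAC, a core of the X box, and GATTGG, the Y box.
H2-Aa, minus strand, chr17:34287862-34287933: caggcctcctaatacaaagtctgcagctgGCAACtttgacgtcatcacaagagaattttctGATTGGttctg
H2-Eb1, plus strand, chr17:34305757-34305828: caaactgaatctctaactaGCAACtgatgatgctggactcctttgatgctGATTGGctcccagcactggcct
H2-Oa, plus strand, chr17:34092269-34092340: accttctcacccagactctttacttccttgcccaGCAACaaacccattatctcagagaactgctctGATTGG
Between the capitals lay 27, 26 and 27 bases. The pair, GNAAC followed by GATTGG after 15 to 30 bases on either strand, was found in 4 of the 6 members (H2-DMb1 was the other) and in 0.944% of 32851 mouse promoters. GATTGG alone was in 5 of the 6 members and in 16.1% of all promoters. Neither H2-DMa nor Ctss held the pair. These letters were chosen after the sequences were seen, and a match is a description of the window and not of binding.

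In the GENCODE vM21 annotation of GRCm38, H2-Aa spans chr17:34282744-34287823, H2-Ab1 chr17:34257689-34269419, H2-Eb1 chr17:34305867-34316674, H2-DMa chr17:34119541-34139101, H2-DMb1 chr17:34153072-34160230 and H2-Oa chr17:34092340-34095234. Ciita lies at chr16:10480059-10528418 and Ctss at chr3:95526786-95556403. H2-DMb1 has a near-identical neighbour, H2-DMb2, so reads may be split between them, and H2-DMa overlaps Brd2 on the opposite strand. H2-Eb1, Ciita and H2-Oa also overlap genes on the opposite strand, and whether counting used strand is not given in the sources used here. Counts of these genes carry that uncertainty.

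The libraries held 11518 nuclei for the adult group and 5130 and 2611 for aged replicates 1 and 2, taken as barcodes with more than 1000 detected genes, at a median of 3269, 4318 and 4900 UMIs (unique molecules counted). Each nucleus was placed in a class by markers that include no member, and classes are written here without "-like", though each is named only by its markers. At most 1 kept barcode was shared by any pair of libraries. All 3 libraries went against their label of male mice: Xist, which is made in female cells, stood at 1414, 844 and 929 CPM (UMIs per 1000000 UMIs of the same nuclei) and the Y-linked Ddx3y at 20.6, 13.2 and 7.87 CPM. Sex was therefore not taken from the labels, and the groups are compared by age only.

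Most nuclei of the ganglion had little class II RNA, and B lymphocyte, myeloid and dendritic nuclei had most per UMI. Summed over H2-Aa, H2-Ab1, H2-Eb1 and Cd74, B lymphocyte nuclei (154 adult nuclei, then 63 and 23 from aged replicates 1 and 2) stood at 759, 1588 and 1197 CPM. Myeloid nuclei (67, 175 and 135) stood at 1107, 551 and 451 CPM. The few dendritic nuclei (7, 4 and 3) held 147, 100 and 6 UMIs, or 4698, 5912 and 687 CPM. Endothelial nuclei had 121, 98.8 and 104 CPM, while SGCs had 18.7, 27.5 and 13.4 CPM and neurons 14.2, 19.2 and 12.2 CPM. Both immune classes lay above every other class with 20 or more nuclei in each library, with no overlap between them and the rest. A sum does not tell fewer nuclei with a transcript from less RNA in each nucleus.

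These transcripts stood higher per UMI in barcodes with few UMIs than over all kept nuclei. In barcodes of 10 to 99 UMIs, taken as free RNA, Cd74 stood at 62.7, 82.7 and 102 CPM, against 14.3, 25.1 and 17.2 CPM over all kept nuclei. From hemoglobin transcripts in each class, the number of class II UMIs that free RNA would give was estimated. B lymphocyte nuclei held 20.2, 66.5 and 44.0 times that number and myeloid nuclei 28.8, 37.8 and 19.7 times. Neurons held 2.16, 3.90 and 2.87 times, SGCs 1.23, 4.31 and 1.41 times, and endothelial nuclei 2.81, 4.19 and 3.26 times. The ratio of 8.17 for fibroblasts of aged replicate 2 rested on 1 nucleus with 68 of the class's 155 class II UMIs. Ratios a few-fold over 1 exceed the estimate from free RNA, and the source of that excess was not tested.

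**Figure D1:**
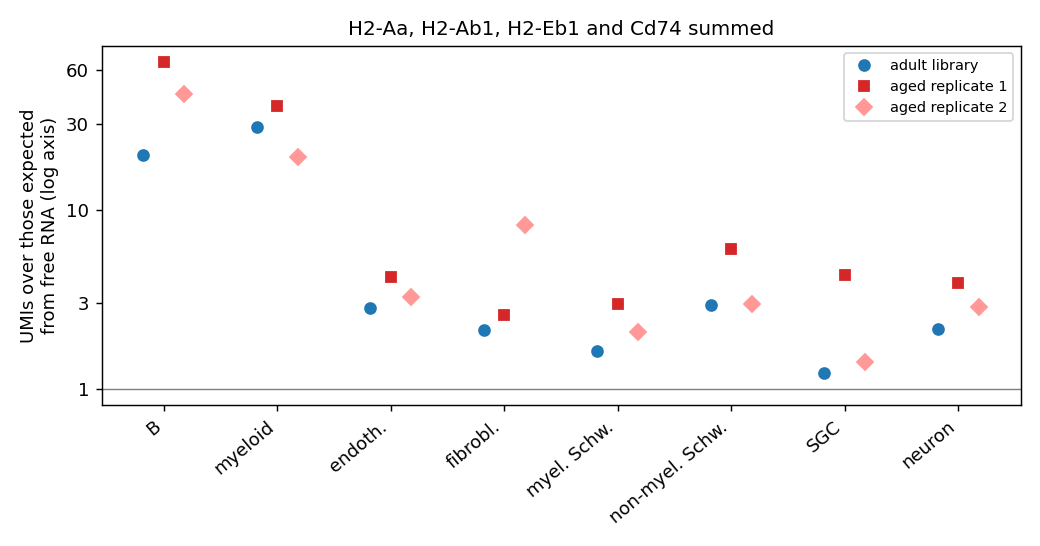
UMIs of H2-Aa, H2-Ab1, H2-Eb1 and Cd74 summed in each class, divided by the number estimated from free RNA (log axis), with 1 point per library. The line marks a ratio of 1. B lymphocyte and myeloid points lie between 19.7 and 66.5, and of the other 6 classes plotted, those with 20 or more nuclei in each library, the highest is the fibroblast point of aged replicate 2 at 8.17.

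Shares of nuclei with a class II UMI were also higher in both immune classes than in neurons. After thinning each nucleus to 1000 UMIs, a class II UMI was seen in 47.8%, 35.4% and 25.2% of myeloid nuclei and in 47.4%, 63.5% and 65.2% of B lymphocyte nuclei, against 2.68%, 3.52% and 3.24% of neurons, which should lack these genes (unthinned, 67.2%, 52.0% and 41.5% of myeloid and 15.9%, 19.3% and 18.9% of neuronal nuclei; median depth 2449, 3853 and 3948 UMIs in myeloid and 9847, 6984 and 11699 UMIs in neuronal nuclei). The 95% exact binomial interval was 35.4% to 60.3% for adult myeloid nuclei and covers counting error only, as do all intervals here. In SGCs the thinned share was 1.17%, 4.04% and 0.833%, below that of neurons in the adult library and aged replicate 2 and above it in aged replicate 1. Of the 377 myeloid nuclei 67 held 5 or more class II UMIs, as did 60 of 240 B lymphocyte nuclei, 9 of 14 dendritic nuclei and 46 of 904 nuclei with markers of several classes. Only 50 of 7414 neurons reached that number, and 41 of those 50 also carried immune markers above free RNA. Such markers were common in neurons of any class II level: only 2343 of 3999, 1470 of 2274 and 626 of 1141 neurons carried none. The 7 endothelial nuclei with 5 or more class II UMIs, of 372, lay in a single cluster of the graph clustering, and 3 of them carried immune markers. Of all endothelial nuclei, 130 of 167, 95 of 147 and 34 of 58 carried none. Clustering also called 151, 141 and 56 of all these nuclei endothelial, so a shared cluster need not set the 7 apart.

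The members were then tested by class, comparing a class with the average of all others over the 3 libraries, for the 8 classes with 20 or more nuclei in every library. Of the 9 members 8 passed the filter on low counts, and H2-Oa did not. In B lymphocyte nuclei 7 of 8 members rose, where 10.6% of all 13554 genes tested were higher and 9.38% lower. The median log2 fold change was 3.61 for the members and -0.15 for all genes. In myeloid nuclei 7 of 8 rose, with 22.7% of all genes higher and 22.1% lower and medians of 3.03 and -0.10. In neurons 7 of 8 fell (28.2% of all genes were lower, medians -2.93 and 0.08). In SGCs 6 of 8 fell (17.9% of all genes, medians -2.21 and -0.03). For every class but these immune ones, the average it is compared with includes both immune classes. A fall there is in part the other side of their rise and not a separate result.

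Among the chains, H2-Aa had 91.7, 234 and 103 CPM in B lymphocyte nuclei and 188, 95 and 72.9 CPM in myeloid nuclei. Neurons had 2.23, 2.92 and 1.83 CPM of it, below every immune value. Its log2 fold change was 3.30 ± 0.29 (SE) in B lymphocyte nuclei (edgeR quasi-likelihood test, Benjamini-Hochberg adjusted p = 5.84e-09) and 3.12 ± 0.25 in myeloid nuclei (edgeR adjusted p = 5.6e-10). H2-Ab1 had 124, 319 and 281 CPM in B lymphocyte nuclei and 233, 75.8 and 85.9 CPM in myeloid nuclei, and H2-Eb1 had 132, 274 and 163 CPM and 279, 118 and 94.0 CPM. For both of these chains the B lymphocyte values were higher in each aged library than in the adult one, and the myeloid values lower. Their log2 fold changes were 3.73 ± 0.36 and 3.49 ± 0.35 in B lymphocyte nuclei and 2.82 ± 0.34 and 3.32 ± 0.30 in myeloid nuclei.

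Cd74, the invariant chain, had 412, 762 and 650 CPM in B lymphocyte nuclei (log2 fold change 3.98 ± 0.22) and 406, 262 and 198 CPM in myeloid nuclei (2.95 ± 0.21). In SGCs it had 6.79, 10.4 and 5.15 CPM, or 33, 17 and 5 UMIs, and its log2 fold change there was -2.73 ± 0.33. Ciita, which controls transcription of the chains and Cd74, had 93.8, 274 and 192 CPM in B lymphocyte nuclei and 233, 107 and 92.4 CPM in myeloid nuclei, with log2 fold changes of 3.98 ± 0.44 and 3.74 ± 0.38. It was therefore high in the same 2 classes as the chains and Cd74. SGCs held 12, 23 and 3 UMIs of Ciita, and there it passed no threshold (edgeR adjusted p = 0.0818).

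Ctss, the protease, was higher in myeloid than in B lymphocyte nuclei in every library, and the chains only in the adult one. It had 421, 778 and 814 CPM in myeloid nuclei and 151, 204 and 207 CPM in B lymphocyte nuclei, so every myeloid value lay above every B lymphocyte value. Its log2 fold change was 5.56 ± 0.18 in myeloid nuclei (edgeR adjusted p = 8.13e-17) and 3.30 ± 0.27 in B lymphocyte nuclei.

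H2-DMa and H2-DMb1, the subunits of the peptide exchange factor, had patterns of their own. H2-DMb1 had 109, 229 and 133 CPM in B lymphocyte nuclei (log2 fold change 4.37 ± 0.29) and 45.7, 38.5 and 50.2 CPM in myeloid nuclei (2.54 ± 0.32). In myelinating Schwann nuclei it had 35.2, 40.4 and 39.5 CPM, from 86, 119 and 48 UMIs, close to the myeloid values and 22.0, 29.9 and 26.1 times what free RNA would give. H2-DMa had 33.1, 37.7 and 41.1 CPM in these Schwann nuclei, above the 14.2, 14.9 and 18.1 CPM of neurons in every library. Both rose in the class, where 19.9% of all genes were higher: by a log2 fold change of 2.26 ± 0.24 for H2-DMb1 (edgeR adjusted p = 8.49e-08) and 1.01 ± 0.18 for H2-DMa (edgeR adjusted p = 0.000153). The chains did not pass there, with H2-Aa at -0.01 ± 0.31. Without Schwann nuclei that also carried immune markers, the log2 fold change of H2-DMb1 was 2.85 and that of H2-DMa 0.90. The near-identical neighbour H2-DMb2 had 6, 3 and 2 UMIs in the same nuclei. H2-DMa did not pass in B lymphocyte (0.89 ± 0.34, edgeR adjusted p = 0.0646) or myeloid nuclei (0.25 ± 0.28).

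In the remaining classes few members moved. In non-myelinating Schwann nuclei Cd74, Ctss and H2-DMb1 fell (3 of 8, where 5.79% of all genes were lower). Graph clustering put only 4, 2 and 0 of the class's 171, 180 and 97 nuclei in a class of the same name, so the class itself is uncertain, and without aged replicate 1 0 members were called lower. Ctss and H2-DMa fell in endothelial nuclei (2 of 8, where 9.78% of all genes were lower), and H2-DMa alone fell in fibroblasts (1 of 8, where 12% were lower, and 0 without the adult library or without aged replicate 1). The endothelial count was 1 without either aged library. No member rose in these 3 classes.

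H2-Oa was barely detected. All kept nuclei held 10, 4 and 6 of its UMIs, of which B lymphocyte nuclei held 2, 2 and 4. Its partner H2-Ob, the other chain of the inhibitor, was detected in B lymphocyte nuclei at 126, 244 and 370 CPM.

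**Figure D2:**
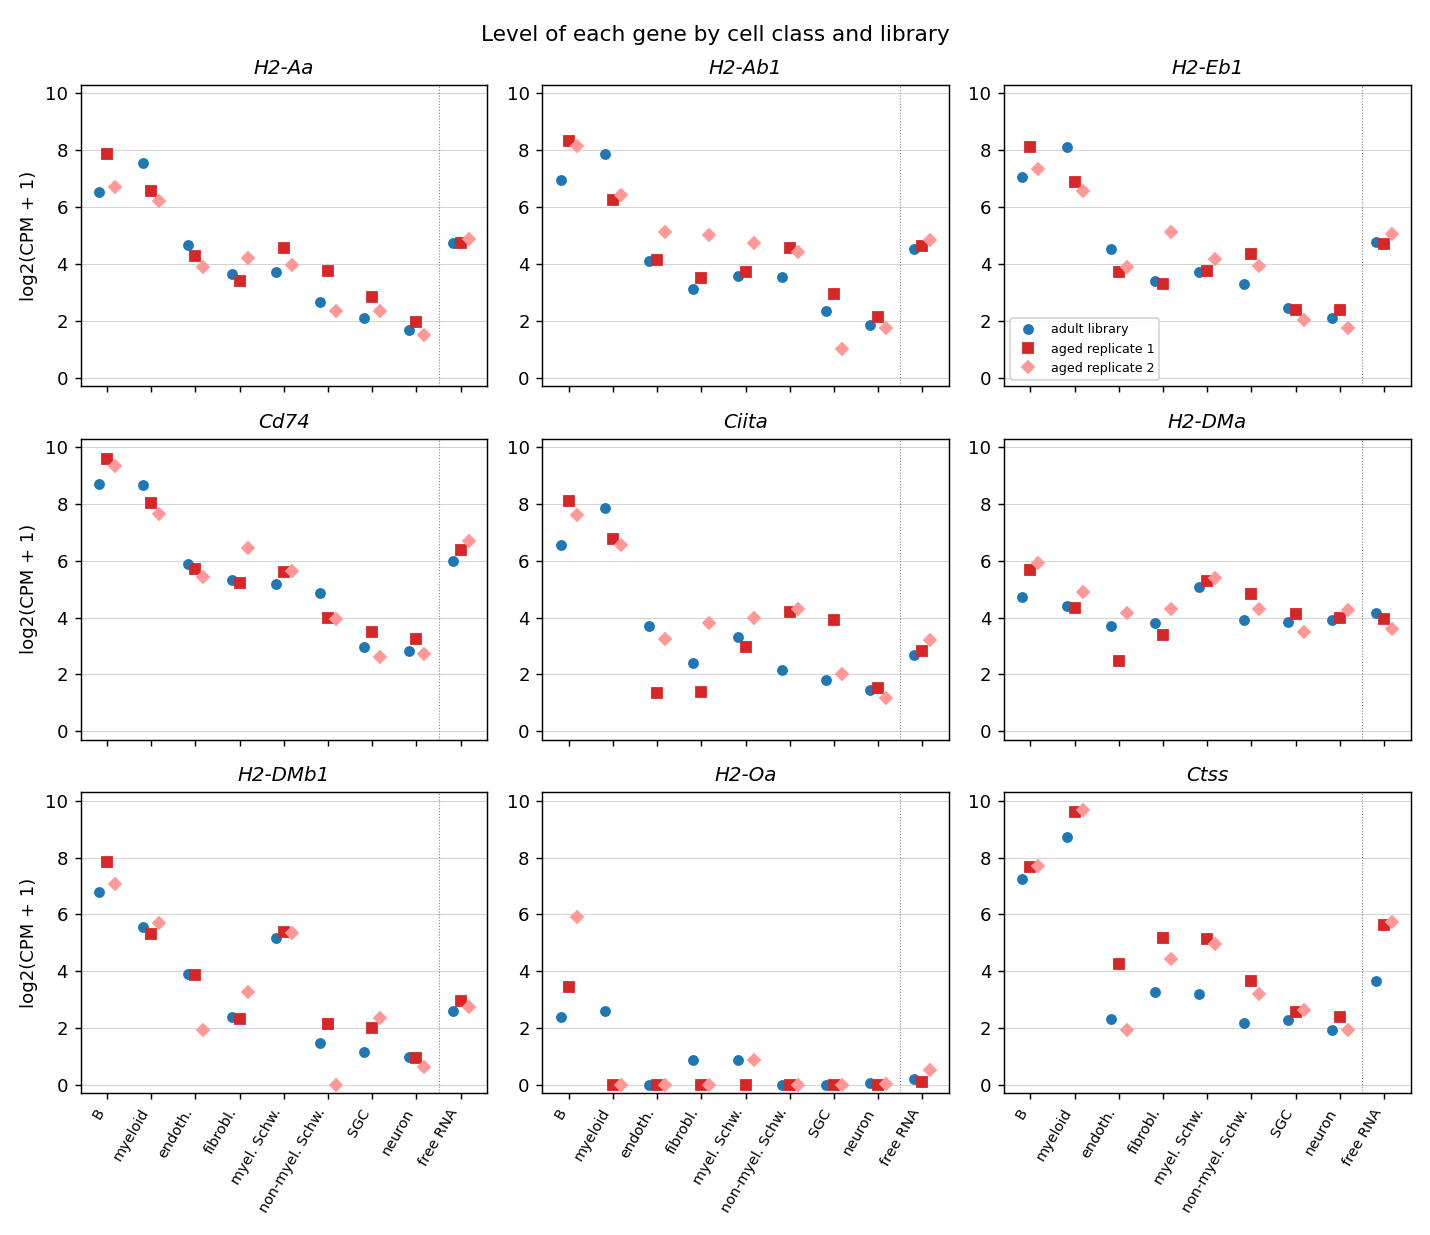
Level of each of the 9 genes as log2(CPM + 1), with 1 point per class and library and free RNA (barcodes of 10 to 99 UMIs) at the right of the dotted line. The first 8 columns are the classes tested. Among these 8, B lymphocyte and myeloid points are highest for the chains, Cd74 and Ciita, and myelinating Schwann points for H2-DMb1 lie between 35.2 and 40.4 CPM.

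A wider list of 45 genes of the pathway, of which 36 were tested, gave 20 higher and 3 lower in myeloid nuclei (median log2 fold change 1.35, against -0.10 for all genes) and 15 higher and 4 lower in B lymphocyte nuclei (0.57, against -0.15). Of all genes 22.7% were higher and 22.1% lower in myeloid nuclei, and 10.6% and 9.38% in B lymphocyte nuclei. Among partners, H2-Ob and H2-DMb2 rose in B lymphocyte nuclei by 7.47 and 7.33 on the log2 scale. H2-DMb2 stood there at 57.6, 124 and 148 CPM. Of the regulators, Irf4 rose in B lymphocyte nuclei by 7.41, Irf8 by 4.24, and the costimulator Cd40 by 4.68. Spi1 and Irf8, transcription factors of myeloid cells, rose in myeloid nuclei by 5.84 and 4.80, and the costimulator Cd86 by 4.66. The processing enzymes Ctsh and Lgmn rose in myeloid nuclei by 4.64 and 3.16. Marchf1, the ligase that removes class II from the surface, rose in both classes, by 3.93 and 3.18. In neurons 5 of the list were higher and 21 lower (median -1.25, against 0.08), where 36.7% of all genes were higher and 28.2% lower. In SGCs 5 were higher and 16 lower (median -0.66, against -0.03), where 21.6% of all genes were higher and 17.9% lower. Here too the average of the other classes includes both immune classes, so the lower counts are not separate from their rises.

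Over the 24 sums of class and library, the genes most like the mean of H2-Aa, H2-Ab1, H2-Eb1 and Cd74 by Pearson's r of log2(CPM + 1), outside those 4, included Irf8 (0.951), A630001G21Rik (0.945), Arhgap45 (0.943), Arid4a (0.939), Tnfaip8 (0.935), Dennd1c (0.931), Cd48 (0.931) and Ptprc (0.929), with Ankrd11 next. Of the other members Ciita had r = 0.918, Ctss 0.876 and H2-DMb1 0.864. H2-DMa had r = 0.540 and ranked 2044 of 13550 genes. The points share libraries, depth and free RNA, so these values describe the sums only.

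Age was compared next, 2 aged libraries against 1 adult library within each class. The fit takes the spread between aged libraries for the single adult library as well, and p-values measure the spread between these libraries, since the labels do not say how many mice each holds. In myeloid nuclei the chains, Cd74 and Ciita were lower in both aged libraries and Ctss was higher. Adult, aged 1 and aged 2 values were 188, 95 and 72.9 CPM for H2-Aa (37, 79 and 45 UMIs), 233, 75.8 and 85.9 CPM for H2-Ab1, 279, 118 and 94.0 CPM for H2-Eb1, 406, 262 and 198 CPM for Cd74 and 233, 107 and 92.4 CPM for Ciita. The adult value lay above both aged values for each of these 5, and with 1 adult library this order is a description only. Of 8 members tested 5 fell and 1 rose, where 8.37% of 9979 genes were lower and 7.51% higher. The median log2 fold change was -0.98 for the members and 0.05 for all genes.

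By log2 fold change in aged over adult myeloid nuclei, H2-Ab1 fell by 1.53 ± 0.32 (edgeR adjusted p = 3.34e-05), H2-Eb1 by 1.38 ± 0.29 (edgeR adjusted p = 3.82e-05), Ciita by 1.22 ± 0.31 (edgeR adjusted p = 0.00112), H2-Aa by 1.15 ± 0.34 (edgeR adjusted p = 0.00676) and Cd74 by 0.81 ± 0.23 (edgeR adjusted p = 0.00537). Ctss rose by 0.92 ± 0.20 (edgeR adjusted p = 5.35e-05). H2-DMa (0.23 ± 0.84) and H2-DMb1 (-0.06 ± 0.55) did not pass. The calls depended on the fit: DESeq2 called 0 of the members in either direction, and with only the 16, 96 and 76 myeloid nuclei of more than 2000 genes 0 were called lower, the log2 fold changes shrank to -0.21 for H2-Ab1, -0.11 for H2-Eb1, -0.39 for Ciita and -0.43 for H2-Aa, and Cd74 turned to 0.82 (edgeR adjusted p = 0.272). H2-Ab1 was called in 7 of 9 alternatives with a test, H2-Eb1 in 6, Ciita in 5, H2-Aa in 4, Cd74 in 3 and Ctss in 7.

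Other measures of the myeloid nuclei moved with age too. Markers of resident macrophages (7 genes, none at 0) summed to 2452 CPM in the adult library and 930 and 1007 CPM in the aged ones, and those of monocytes (5 genes, none at 0) to 381, 107 and 188 CPM. Microglia-like markers (4 genes, none at 0) went the other way, at 365, 448 and 496 CPM. Dendritic markers (1 of 10 at 0) stood at 223, 220 and 276 CPM. Cd163, Mrc1 and F13a1 of the resident list and Cx3cr1 of the microglia-like list were also among the markers that defined the class. B lymphocyte markers, 3 of 10 at 0, summed to 502, 153 and 117 CPM in the same nuclei. Free RNA was estimated at 28.1%, 9.27% and 12.1% of their UMIs. With free RNA subtracted the log2 fold changes were -1.87 for H2-Ab1, -1.71 for H2-Eb1, -1.54 for Ciita, -1.47 for H2-Aa and -1.13 for Cd74, each at least as large as without, and the first 3 were called. That of Ctss was 0.61 and was not called (edgeR adjusted p = 0.092). With each nucleus thinned to 1000 UMIs they were -1.71, -1.29, -0.71, -0.80 and -0.95, and of these 5 only H2-Ab1 was called. The part of the marker lists in the result was not tested.

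Of the wider pathway list 6 of 29 genes tested rose with age in myeloid nuclei and 2 fell (median log2 fold change 0.34, against 0.05 for all genes). Of all genes 7.51% rose and 8.37% fell, and the share of the list that fell was near the latter. Of the 6 that rose, 4 were lysosomal proteases, while the proteases Ctsl, Ctsh and Sppl2a of the same list did not pass. Ctsd, cathepsin D, had 107, 753 and 650 CPM, a log2 fold change of 2.72 ± 0.26 (edgeR adjusted p = 2.29e-22), and was called in 9 of 9 alternatives with a test, with a DESeq2 adjusted p of 0.000362. Ctsb, cathepsin B, had 305, 841 and 849 CPM (1.47 ± 0.21), Ctsz 81.2, 203 and 191 CPM (1.28 ± 0.36) and Lgmn 330, 573 and 681 CPM (0.92 ± 0.21). The tetraspanin Cd9 (0.87) and the coinhibitory ligand Cd274 (1.69) rose as well. Cst3, cystatin C, an inhibitor of cathepsins, fell by 1.47, from 254 to 114 and 64.8 CPM, and Irf1 fell by 1.31. Of the 9 alternatives with a test, Ctsb was called in 8, Ctsz and Lgmn in 6, Cd9 and Cst3 in 5 and Irf1 in 1, and Cd274 was called in 2 of 8. With free RNA subtracted, 0, 586 and 362 UMIs of Ctsd and 0, 121 and 100 of Cd9 were left, so the fitted log2 fold changes of 11.4 and 9.36 there depend on the prior count and measure no fold. With classes from clustering Cd9 had 0.29.

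**Figure D3:**
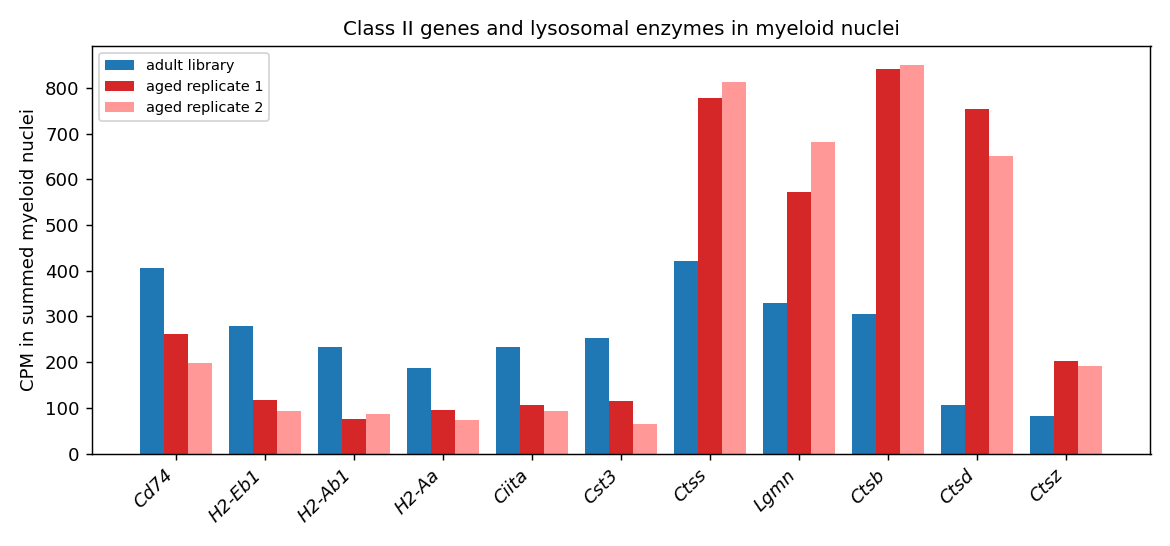
CPM in the summed myeloid nuclei of each library. Cd74, the 3 chains, Ciita and Cst3 are highest in the adult library (blue), and Ctss, Lgmn, Ctsb, Ctsd and Ctsz are higher in both aged libraries (red and pink), for Ctsd 753 and 650 against 107 CPM.

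In B lymphocyte nuclei all 8 tested members had higher point estimates in the aged libraries, and edgeR called 0 of them (2 at an unadjusted p under 0.05, DESeq2 0), where 5.82% of 6409 genes were called. Those 2 were Ciita (1.17 ± 0.52, edgeR adjusted p = 0.223) and H2-Ab1 (1.10 ± 0.49, edgeR adjusted p = 0.217). The summed class II level of the adult library, 759 CPM, lay below the 1588 and 1197 CPM of the aged ones. In the same nuclei B lymphocyte markers (0 of 10 at 0) summed to 5228, 8856 and 8617 CPM, neuron markers to 2258, 1708 and 931 CPM, and free RNA was estimated at 27.4%, 15.2% and 14.3% of UMIs. Their part in the difference was not tested. Of the pathway list only Cd80, a costimulator, rose in this class (1 of 30, where 1.17% of all genes rose), with 19.2, 184 and 103 CPM.

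**Figure D4:**
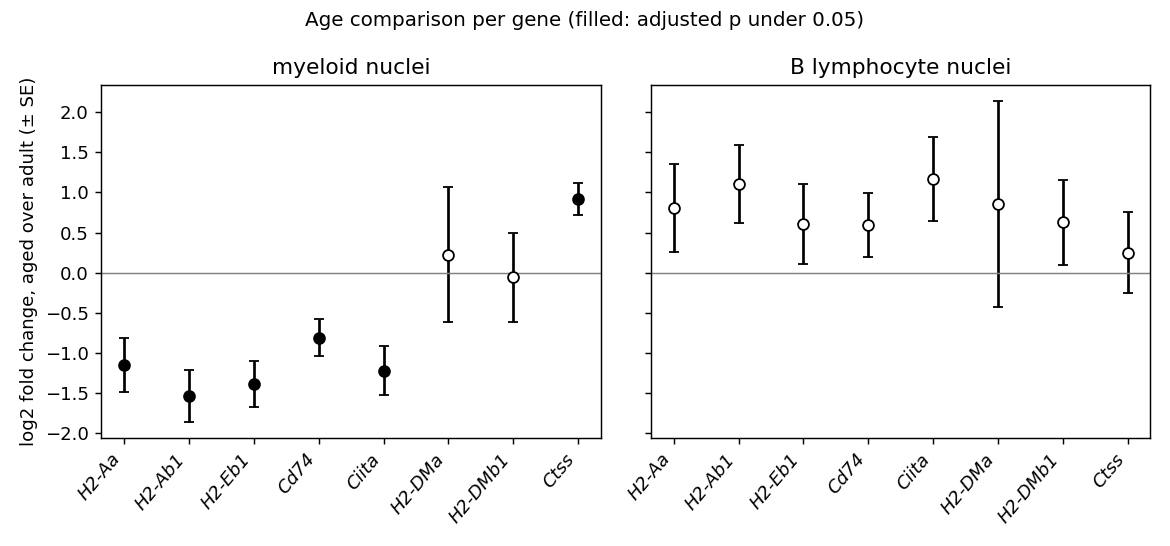
Log2 fold change, aged over adult, ± SE for the 8 members tested in myeloid (left) and B lymphocyte nuclei (right). Filled points passed an edgeR adjusted p of 0.05. In myeloid nuclei H2-Aa, H2-Ab1, H2-Eb1, Cd74 and Ciita lie below 0 and Ctss above, and no B lymphocyte point is filled.

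The difference between these age effects was tested in a single fit over all classes, added after seeing the data. H2-Ab1 had a lower age effect in myeloid than in B lymphocyte nuclei, by -2.68 ± 0.65 on the log2 scale (edgeR adjusted p = 0.0495), and than in fibroblasts, by -2.78 ± 0.76 (edgeR adjusted p = 0.0418). Of all genes 0.848% and 3.41% differed in these comparisons. The other 7 members did not pass in either. Against SGCs, endothelial nuclei, myelinating Schwann nuclei, neurons and non-myelinating Schwann nuclei 0 of 8 members passed, where 4.01%, 1.36%, 3.28%, 4.15% and 2.98% of genes did. These 5 comparisons had members with an unadjusted p under 0.05, among them Ciita against SGCs (-2.99 ± 0.90, edgeR adjusted p = 0.0643).

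Outside the immune classes Ctss was the one member called with age. In myelinating Schwann nuclei it had 8.18, 34.3 and 30.4 CPM, from 20, 101 and 37 UMIs, a log2 fold change of 1.92 ± 0.34 (edgeR adjusted p = 0.000925), with 8.88% of genes called in the class. In fibroblasts it had 8.60, 35.2 and 20.8 CPM (1.66 ± 0.46, edgeR adjusted p = 0.0389), with 6.1% called. Ctss in free RNA was also higher in both aged libraries, at 11.7, 48.9 and 52.8 CPM. Schwann nuclei held 2.20, 3.46 and 2.15 times, and fibroblasts 3.19, 4.53 and 3.61 times, the number that free RNA would give. With free RNA subtracted the log2 fold changes were 1.87 and 1.56, close to those above, though neither call held (edgeR adjusted p = 0.171 and 0.119). The fibroblast log2 fold change was 0.66 without nuclei that also carried immune markers. Without such nuclei the Schwann log2 fold change was 2.02 (edgeR adjusted p = 0.0153). Myeloid markers, 0 of 12 of them at 0, summed to 331, 577 and 548 CPM in all myelinating Schwann nuclei and to 106, 166 and 159 CPM in fibroblasts. The part of these markers in the calls was not tested.

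In the other 4 classes edgeR called 0 members with age, as did DESeq2 where it gave values: 0 of 8 in neurons (7.89% of all genes called), 0 of 4 in SGCs (8.73%), 0 of 4 in endothelial nuclei (1.88%) and 0 of 5 in non-myelinating Schwann nuclei (5.51%). At an unadjusted p under 0.05 there was 1, Ciita in SGCs. In neurons H2-DMa, with 938, 607 and 543 UMIs, had a log2 fold change of 0.09 ± 0.25.

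In SGCs the calls depended on how the nuclei were chosen. With 1284, 198 and 120 SGC nuclei by markers, Ciita had 2.47, 14.1 and 3.09 CPM and a log2 fold change of 1.79 ± 0.80 (edgeR adjusted p = 0.171). With the 3966, 681 and 317 nuclei that graph clustering called SGC, 6 of 8 members rose with age, where 9% of all 16233 genes tested rose: Cd74 by 1.00, Ciita by 1.63, H2-Aa by 1.06, H2-Ab1 by 1.35, H2-DMb1 by 1.75 and H2-Eb1 by 1.00 on the log2 scale. The edgeR adjusted p ranged from 0.00149 for H2-Ab1 to 0.0433 for H2-DMb1. The class held 1.33, 7.78 and 4.79 times the H2-Aa UMIs that free RNA would give, 1.59, 11.3 and 5.35 times for H2-Ab1 and 3.72, 32.3 and 10.9 times for Ciita, higher in both aged libraries than in the adult one. Of the nuclei in this class, 1238, 194 and 116 were also SGCs by the marker gate. The rest were nuclei that the gate left unassigned, the larger part in the adult library, called mixed or put in another named class. Those in another named class were a larger share in both aged libraries than in the adult one. The clusters that made up this class also differed by library: one held 1.36% of its adult nuclei and 41.7% and 49.8% of its aged nuclei, another 28.6%, 2.35% and 3.79%, and the cluster that held 2 of 33, 55 of 68 and 13 of 16 Ciita UMIs of the class made up 2.40%, 20.4% and 13.2% of its nuclei. The part of these shifts in the calls was not tested.

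By the marker gate, 4 of 26 genes of the wider list rose in SGCs with age and 1 fell (median 0.07, against -0.01 for all genes), where 3.37% of all genes rose and 5.35% fell. Irf1, an interferon-induced transcription factor, had 32.9, 84.4 and 65.9 CPM (1.09 ± 0.23). Cd274 had 7.61, 58.1 and 59.7 CPM (2.82 ± 0.31). Sppl2a, the protease that clears the remnant of the invariant chain, passed at 0.69 but was called in 2 of 10 alternatives and turned to -0.27 in thinned nuclei. Cd63 fell by 0.65. Cd274 also passed in myelinating (1.94) and non-myelinating Schwann nuclei (2.58), among 4 of 35 and 2 of 22 genes higher, where 3.48% and 2.05% of all genes were. In myelinating Schwann nuclei it had 7.77, 46.5 and 7.40 CPM, so only aged replicate 1 lay above the adult library, and without that replicate the log2 fold change was -0.029. In non-myelinating Schwann nuclei it had 7.03, 53.9 and 35.0 CPM. The clustered class of that name, which shared only 4, 2 and 0 nuclei with the gated one, had a log2 fold change of -0.17. That value therefore comes from almost wholly different nuclei. In myelinating Schwann nuclei Ctsd rose by 0.45 and Marchf1 fell by 1.01. Socs1 and Cd40 also passed there, with Socs1 at 0, 5.09 and 4.11 CPM and Cd40 at 7.36, 0.340 and 0 CPM. In neurons 3 of 40 genes of the list were lower, where 6.52% of all genes were, a share near that of the list. They were Cd40, Cd4 and Il10, with log2 fold changes of -2.68, -2.42 and -1.19 at levels of at most 4.91 CPM.

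One cluster of the clustered SGC class, chosen after its values were seen and given with no test, held 95, 139 and 42 nuclei. The marker gate called 48, 55 and 22 of these SGC. Ciita in the cluster stood at 6.25, 53.1 and 35.4 CPM, from 2, 55 and 13 UMIs. The class II sum there was 43.8, 138 and 68.1 CPM. B lymphocyte markers summed to 12.5, 23.1 and 19.1 CPM there, myeloid markers to 350, 488 and 468 CPM and dendritic markers to 18.8, 29.9 and 32.7 CPM, all higher in both aged libraries. Their part in these values was not tested. Another cluster of that class, of 509, 155 and 58 nuclei, had a class II sum of 30.8, 77.4 and 95.3 CPM. Its Ciita stood at 3.94, 4.23 and 0 CPM and B lymphocyte markers at 39.4, 32.6 and 30.3 CPM. It held 86, 183 and 85 class II UMIs, the most of any cluster of the class in each library. The marker gate called only 96, 8 and 4 of its nuclei SGC. It called 65, 28 and 12 mixed, left 180, 22 and 4 unassigned and put the others in other named classes.

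Within the myeloid nuclei class II RNA was uneven. Nuclei with no class II UMI made up 32.8%, 48.0% and 58.5% of the class, and the 10% of nuclei with most held 43.1%, 57.9% and 63.7% of its class II UMIs. All 4 summed genes were seen together in 11, 14 and 8 nuclei. Of myeloid nuclei with a Ciita UMI, 21 of 21, 37 of 42 and 25 of 29 also had a class II UMI. Of those without, 24 of 46, 54 of 133 and 31 of 106 had one. All counts of this paragraph are unthinned and depth was not matched, so deeper nuclei are likelier to show both.

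Myeloid nuclei were split by whether they kept a class II UMI after thinning to 1000 UMIs (32, 62 and 34 with, 35, 113 and 101 without). The split used H2-Aa, H2-Ab1, H2-Eb1 and Cd74, whose levels are given as a description: Cd74 had 938, 711 and 821 CPM with and 81.7, 48.0 and 30.8 CPM without. Ciita, which the split did not use, had 509, 220 and 238 CPM with and 65.3, 53.3 and 53.4 CPM without, with no overlap. Marker lists moved with the split. B lymphocyte markers (5 of 10 at 0) summed to 697, 257 and 246 CPM with and 384, 103 and 82.2 CPM without. Dendritic markers (2 of 10 at 0) summed to 362, 287 and 338 CPM with and 139, 188 and 259 CPM without. Neuron markers (0 of 11 at 0) summed to 1877, 1198 and 1420 CPM with and 1756, 940 and 524 CPM without. Monocyte, microglia-like and myeloid markers were also higher with class II UMIs in every library. Resident, SGC and myelinating Schwann markers were higher with them in both aged libraries only. Their part in the difference was not tested. Ctss had 711, 919 and 791 CPM with and 245, 711 and 820 CPM without, and these overlapped. Across all 4693 genes 17 differed (0.362%), 8 higher and 9 lower, and 5 of the 8 were Ciita and the split's own genes. The other 3 were Ctsc, cathepsin C (1.19 ± 0.24, edgeR adjusted p = 0.0382), the monocyte chemokine receptor Ccr2 (2.09 ± 0.39, edgeR adjusted p = 0.021) and the interferon-inducible Ifi213 (2.25 ± 0.40, edgeR adjusted p = 0.0146). The 9 lower genes were Slc35f1, Ncam2, Adgrb3, Lrrc4c, Grik2, Pdzd2, Pcdh9, Lsamp and Prkg1, several of them genes of neurons and glia, and the number of genes called lower was 0 without the adult library, 3 without aged replicate 1 and 41 without aged replicate 2. Without the adult library 4 genes were called higher. Median depth was 2265, 3044 and 3668 UMIs with and 3084, 4303 and 4465 UMIs without class II UMIs.

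Most class II RNA lay outside the nuclei described so far. Kept nuclei held 53.8%, 58.4% and 54.5% of all UMIs but 15.7%, 23.4% and 13.3% of Cd74 UMIs and 15.3%, 27.3% and 14.3% of H2-Aa UMIs. For Ciita the share was 38.8%, 48.2% and 31.0%, and for Ctss 28.3%, 35.8% and 31.5%. H2-DMa, at 49.8%, 62.3% and 62.7%, lay below the share of all UMIs in the adult library and above it in both aged ones. Barcodes with 501 to 1000 genes, which the nucleus filter left out, included 39, 38 and 14 with myeloid markers at 1920, 1042 and 2640 CPM of class II and 197, 34 and 11 with B lymphocyte markers at 1396, 1571 and 1066 CPM. Of the class II UMIs in such barcodes 64.2%, 64.8% and 66.2% lay in barcodes that the markers put in no class, 5.27%, 5.80% and 11.6% in myeloid and 19.1%, 7.50% and 3.41% in B lymphocyte ones.

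**Figure D5:**
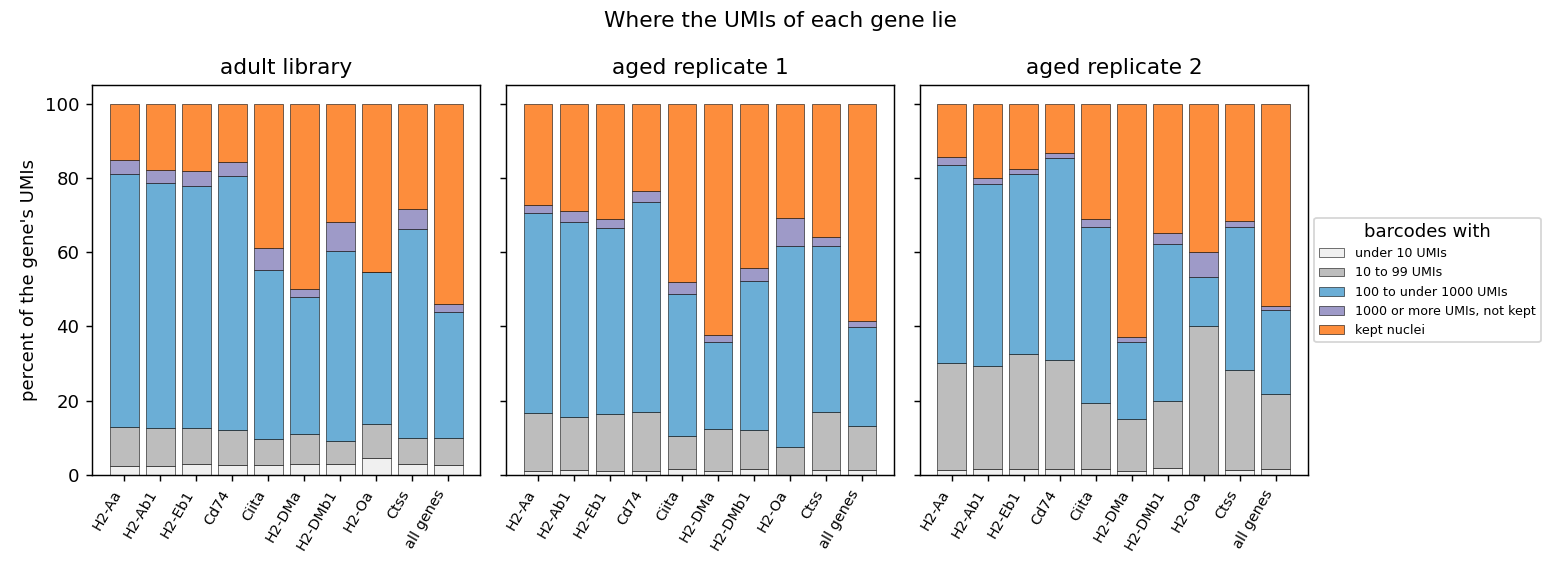
Percent of the UMIs of each gene, and of all genes, in barcodes of each size, with 1 panel per library. The orange segments are kept nuclei, which hold 13.3% to 23.4% of Cd74 UMIs and 53.8% to 58.4% of all UMIs, and blue segments are barcodes of 100 to under 1000 UMIs.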

How the data were processed

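Nuclei of L3 to L5 ganglia were profiled by droplet sequencing, and the authors aligned and counted with Pipseeker. The deposited matrices hold raw UMI counts per gene and barcode, and the labels name mm10. Barcodes with more than 1000 genes, the filter of the study, were kept, with 167664164, 95647106 and 69045987 UMIs in all barcodes of the adult library and aged replicates 1 and 2. A nucleus joined a class where at least 3 of its markers (2 for lists of up to 5) were seen and their sum exceeded free RNA at a Poisson p under 0.0001. Where a second class came within 2-fold in log p it was called mixed, which also took doublets, and left out (904 nuclei); 4828 were unassigned. Free RNA per class was scaled on 4 hemoglobin genes, leaving out nuclei with 20 or more of their UMIs.

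Counts were summed per library and class and tested with edgeR 4.0.16 (R 4.3.3; TMM, filterByExpr, quasi-likelihood, Benjamini-Hochberg below 0.05), with library as a block between classes. In data simulated for the myeloid age comparison over 9344 genes it recovered 16.0% of 2-fold and 71.7% of 4-fold changes. DESeq2 1.42.0, RLE scaling, no filter, other gene minimums, scanpy 1.11.5 clustering, free RNA subtraction, thinning and leaving out libraries were alternatives. The members and gene lists were chosen with earlier results of these data known. Named were all 9 members, pathway genes past the threshold or highest, the 10 genes most like the members and the 10 largest each way in the split. Results for some of these genes are not reported here. Sums of few UMIs carry wide counting error.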

Additional observations from a re-analysis of the deposited data

Results flagged for a closer look

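The age effect on H2-Ab1 in myeloid nuclei differed from that in fibroblasts by -2.78 and from that in B lymphocyte nuclei by -2.68 on the log2 scale, each past the threshold in an edgeR fit over all classes. The fibroblast value includes the single nucleus of aged replicate 2 with 68 class II UMIs.

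Barcodes of 100 to under 1000 UMIs, which the comparisons of the report left out though some entered the alternative of more than 500 genes, held 68.5% (adult), 56.5% (aged replicate 1) and 54.3% (aged replicate 2) of Cd74 UMIs, against 34.0%, 26.6% and 22.5% of all UMIs. Cd74 stood there at 99, 133 and 170 CPM, above the 62.7, 82.7 and 102 CPM of barcodes with 10 to 99 UMIs.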

How the results depend on the processing

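By class, members higher in B lymphocyte, myeloid and myelinating Schwann nuclei and lower in neurons and SGCs stayed within 1.5 times the reported counts under every alternative that gave a value. Members lower in non-myelinating Schwann nuclei went from 3 to 0 with more than 2000 genes and 7 with clustering (leaving out a library, 0 to 3). Clustering chose almost wholly different nuclei for that class. Endothelial members lower went from 2 to 0 with more than 2000 genes, 0 with clustering and 1 without immune-marker nuclei (1 to 2). Fibroblast members lower went from 1 to 3 with no filter, 2 with DESeq2, 0 with more than 2000 genes, 3 with more than 500, 4 without immune-marker nuclei and 2 with the stricter gate (0 to 2).

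By age, myeloid members higher went from 1 to 0 with DESeq2 and with free RNA subtracted. Myeloid members lower went from 5 to 3 with no filter, with clustering and with free RNA subtracted, 1 with thinning, and 0 with DESeq2 and with more than 2000 genes, where Cd74 reversed to 0.82. Myeloid genes higher went from 749 to 68 (DESeq2), 221 (free RNA subtracted), 440 (stricter gate) and 157 (thinned), and genes lower from 835 to 102 (DESeq2), 494 (more than 2000 genes), 197 (free RNA subtracted), 523 (stricter gate) and 169 (thinned). SGC members higher went from 0 to 6 with clustering. Myelinating Schwann members higher went from 1 to 0 with DESeq2 and free RNA subtracted, and fibroblast members higher from 1 to 0 with RLE scaling, DESeq2, more than 2000 genes, free RNA subtracted, more than 500 genes, thinning and without immune-marker nuclei. Sppl2a reversed in thinned SGCs (-0.27), and Cd274 in myelinating Schwann nuclei without aged replicate 1 (-0.029, and 2.55 without aged replicate 2). Cd274 also had -0.17 in the clustered class named non-myelinating Schwann, which shared almost no nuclei with the gated one. Dropping an aged library leaves age with no residual degrees of freedom, so it gives values and no test. In the myeloid split, genes higher went from 8 to 19 with no filter (leaving out a library, 4 to 6) and genes lower from 9 to 56 with no filter and 14 with thinning to 500 UMIs (0 to 41). The causes were not tested. The settings of 500 genes, the stricter gate and immune markers were chosen after seeing the data.

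No paired analysis was possible because the groups share fewer than 2 replicate numbers. The adult group has 1 library, so age and library cannot be told apart, and members with few UMIs, H2-Oa above all, could not be compared at this depth.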
